A study of Mus musculus with 12 samples.

Results

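The mRNA of 6 receptors that natural killer (NK) cells share with CD8 T cells were followed in cytotoxic T lymphocytes (CTL): Cd7, Klrd1, Klrk1, Klrc1, Klrc2 and Klrg1. They were picked by symbol from a table of 13283 genes, and all 6 were present. The choice was made with their values in these libraries known, so their levels and fold changes are given as a description, without tests. CTL came from lymph node or spleen cells of female mice aged 11 to 27 weeks, activated with anti-CD3 and anti-CD28 for 48 h, kept with IL-12 (2 ng/mL) and IL-2 (20 ng/mL), and plated on day 6. The 12 libraries made 4 groups of 3. WT CTL were from GzmB cre+ mice, which have intact FOXO1, and FOXO1-GFP KO CTL were from FOXO1-GFPfl/fl Gzmb cre+ mice, in which floxed Foxo1 alleles tagged with GFP were deleted. Both genotypes therefore carried a Cre recombinase driven by the promoter of granzyme B, a gene switched on in activated CTL. Each genotype was given vehicle (DMSO) or, for 24 h, 10 µM IC87114, which blocks p110δ, a catalytic subunit of PI3K (PI3Kdi). Live CD8+ cells were sorted, and for FOXO1-GFP KO the gate also required loss of GFP.

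Klrd1 encodes CD94, a C-type lectin that pairs with NKG2A, the inhibitory chain made by Klrc1, or with NKG2C, the activating chain made by Klrc2, and both pairs bind the non-classical MHC molecule Qa-1. Klrk1 encodes NKG2D, an activating receptor for stress-induced ligands, which signals through the adaptor DAP10 and, in mice, also DAP12. Klrg1 encodes an inhibitory lectin that binds cadherins and marks terminally differentiated effector T cells. Cd7 encodes an immunoglobulin-family receptor of T and NK cells and is not a lectin. PI3K p110δ activates the kinase AKT, which keeps the transcription factor FOXO1 out of the nucleus.

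Foxo1 mRNA, which checks the genotype, was at 5.77 to 10.46 FPKM in the 6 WT libraries of both treatments and at 0.58 to 1.75 FPKM in the 6 FOXO1-GFP KO libraries. Library depth, worked out from the steps between low values, was 12.9 to 48.0 M reads (M, 1e6), lower in each WT+PI3Kdi library than in each WT library. All 7 CD8 T cell markers looked for were present, with Cd8a between 139 and 253 FPKM. Their sum, mostly Gzmb, was 10310 to 10970 FPKM for WT and 8395 to 10300 with PI3Kdi. For FOXO1-GFP KO the sum was 9888 to 11470 without and 9364 to 12290 with PI3Kdi. Cd8a, Cd8b1, Cd3d and Cd3g were higher with PI3Kdi in all 3 pairs of each genotype. Cd3e was higher in 2 WT and 3 FOXO1-GFP KO pairs. Prf1 was lower in all 3 pairs of each genotype. Gzmb was lower in 3 WT pairs and higher in 2 of 3 FOXO1-GFP KO pairs. Of 9 genes listed as NK cell markers, 5 were not in the table (Ncr1, which encodes NKp46, and Klra4, Klra8, Klra9 and Klri2), as was Zbtb16, the defining gene of NKT cells. The other NK-listed genes were Gzma, Eomes, Klrb1c and Klre1, which CTL can express too. Their sum was mostly Gzma. It was 4272 to 4479 FPKM in WT, 4843 to 6027 in WT+PI3Kdi, 4544 to 5445 in FOXO1-GFP KO and 5805 to 7425 in FOXO1-GFP KO+PI3Kdi, so it was higher with PI3Kdi in both genotypes. Klrb1c, which encodes NK1.1, was between 1.94 and 4.81 FPKM in all libraries. The 2 gamma delta T cell genes in the table, Trdc and Trgv2 of 5 listed, summed to 36.4 to 50.4 FPKM in WT and 51.1 to 67.8 in WT+PI3Kdi, and to 29.5 to 51.6 and 45.9 to 79.9 in FOXO1-GFP KO without and with PI3Kdi. Nearly all of this was Trgv2, and Trdc, the constant region of the delta chain, was between 0.70 and 1.42 FPKM. Trgv2 was called higher with PI3Kdi in FOXO1-GFP KO with the replicate block described further on (log2 fold change 0.66, limma adjusted p = 0.00247) and not without it (adjusted p = 0.821). B cell genes (3 of 8 in the table) summed to 11.4 to 15.6 FPKM in WT and 15.3 to 19.5 in WT+PI3Kdi, and to 4.48 to 6.88 and 4.31 to 6.36 in FOXO1-GFP KO without and with PI3Kdi. In WT the immunoglobulin genes Ighm and Igkc were higher with PI3Kdi in all 3 pairs, against 0 of 3 in FOXO1-GFP KO, and Igkc was called in WT with the block (1.36, limma adjusted p = 0.0294; 0.837 without it). CD4 T cell genes (3 of 4 in the table, Foxp3 not) summed to 124 to 203 FPKM in WT, 143 to 215 in WT+PI3Kdi, 126 to 193 in FOXO1-GFP KO and 146 to 196 in FOXO1-GFP KO+PI3Kdi, nearly all from Il2ra. Cd4 itself was at 0.55, 0.57 and 0.44 FPKM in WT and at 0.95, 0.83 and 0.90 FPKM in WT+PI3Kdi, called with the block (0.68, limma adjusted p = 0.0413) and not without it (adjusted p = 0.9997). Myeloid genes (3 of 7 in the table, Lyz2 and Csf1r not) summed to 16.2 to 21.5 FPKM in WT and 14.8 to 25.9 in WT+PI3Kdi, and to 15.6 to 21.5 and 21.5 to 27.04 in FOXO1-GFP KO without and with PI3Kdi, nearly all from Cd68. The 1 dendritic cell gene of 4 in the table, Itgax, was between 0.10 and 0.32 FPKM. The part of these other cells in the values below was not tested, and in bulk RNA fewer cells of a type and less RNA per cell cannot be told apart.

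Of the 6 genes, 5 lie on mouse chromosome 6. Klrd1 (chr6:129591782-129598775, plus strand, GRCm38) is followed within the NK gene complex by Klrk1 (chr6:129610323-129623864), Klrc2 (chr6:129647496-129660689) and Klrc1 (chr6:129666015-129678973), all on the minus strand. Klrg1 (chr6:122270596-122282882, minus strand) lies on the same chromosome but outside this cluster, and Cd7 (chr11:121036747-121039418, minus strand) is on chromosome 11. Klrc1 and Klrc2 are close copies, so a read can come from either. Of the 75-base windows in Klrc1 transcripts, 24.7% also occurred in Klrc2, and of those in Klrc2 8.32% occurred in Klrc1. The other 4 genes shared no such window with each other, with this pair or with Klrc3, a further copy that is not analysed here. The following 240 coding bases are shown because they hold the few letters that separate the pair where they are most alike. They were taken from the GENCODE transcripts Klrc1-201 (chr6:129675337-129677322, minus strand) and Klrc2-201 (chr6:129656849-129658841, minus strand) on GRCm38, the intron between their 2 exons left out. Capitals mark the 5 bases that differ, and the first 120 bases are identical, longer than a read.
Klrc1: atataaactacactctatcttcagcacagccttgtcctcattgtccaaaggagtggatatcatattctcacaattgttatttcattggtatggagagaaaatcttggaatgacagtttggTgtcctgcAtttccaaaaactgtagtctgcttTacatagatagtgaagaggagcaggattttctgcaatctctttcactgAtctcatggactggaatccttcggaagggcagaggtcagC
Klrc2: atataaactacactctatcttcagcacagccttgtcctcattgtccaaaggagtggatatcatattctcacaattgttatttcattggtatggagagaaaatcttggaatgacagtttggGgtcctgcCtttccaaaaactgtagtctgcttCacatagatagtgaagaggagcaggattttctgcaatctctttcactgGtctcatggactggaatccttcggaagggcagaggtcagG
The values of Klrc2, which were far under those of Klrc1, are therefore uncertain, since reads from Klrc1 and Klrc2 may have been dropped where the genes are alike. Of Cd7, 10.8% of exon bases overlap Gm11775, a gene on the opposite strand. Libraries were stranded, but the strand setting of the counting is not given in the sources used here, so this overlap may also affect Cd7.

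RefSeq promoter windows on GRCm38.p6 (250 bases before to 50 after a start site) matched 3 of the 6 genes, Klrk1, Klrc1 and Klrc2. They were searched on both strands for the letters GTAAACA (a FOXO motif), AGGTGTGA (a T-box motif) and TGTGGTT (a RUNX motif), and no matches overlapped. FOXO, T-box and RUNX factors all act in CD8 T cells. The FOXO and T-box letters were not in these windows, and they occur in 3.65% and 1.28% of 32851 mouse windows of this length. The RUNX letters, held by 5.27% of windows, occurred once in Klrk1, starting 129 bases before the start site. The Klrk1 bases before the start site (chr6:129623865-129624114, minus strand) are shown because this was the only match, with the 7 matching bases in capitals. A match describes letters and does not show a bound site.
Klrk1: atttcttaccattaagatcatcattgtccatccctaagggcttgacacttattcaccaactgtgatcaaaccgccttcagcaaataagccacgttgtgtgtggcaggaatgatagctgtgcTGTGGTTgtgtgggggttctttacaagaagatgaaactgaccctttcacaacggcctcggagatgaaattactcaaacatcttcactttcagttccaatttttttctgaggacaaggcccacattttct

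The 6 mRNA spanned a wide range of levels. Expression is in FPKM, fragments per kilobase of exon scaled to library size, which can be compared between genes. Over the 12 libraries Klrd1 had a mean of 51.0 FPKM, higher than 92.3% of genes. Klrk1 followed at 11.4 FPKM (higher than 69.0% of genes) and Klrc1 at 7.23 FPKM (58.1%). Klrg1, Cd7 and Klrc2 were low, at 0.788, 0.701 and 0.254 FPKM. Their ranges over libraries overlapped, with 0.48 to 1.36 FPKM for Klrg1, 0.16 to 1.66 for Cd7 and 0.16 to 0.49 for Klrc2, so the order of these 3 depended on the library. Klrd1 exceeded Klrk1 in all 12 libraries, and Klrk1 exceeded Klrc1 in all 12. The deposited FPKM divide by the length of all annotated exons, which for Klrk1 is 7183 bases against 3197 in its longest coding transcript. Per kilobase of the longest coding transcript, Klrk1 would be at 25.6 FPKM and Klrd1 at 71.1, in the same order. Precision at the low end was limited by reads. Cd7 had 3 to 30 estimated reads in a library, Klrg1 11 to 59 and Klrc2 21 to 59, against 160 to 606 for Klrc1, 806 to 2365 for Klrd1 and 1147 to 3301 for Klrk1.

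**Figure D1:**
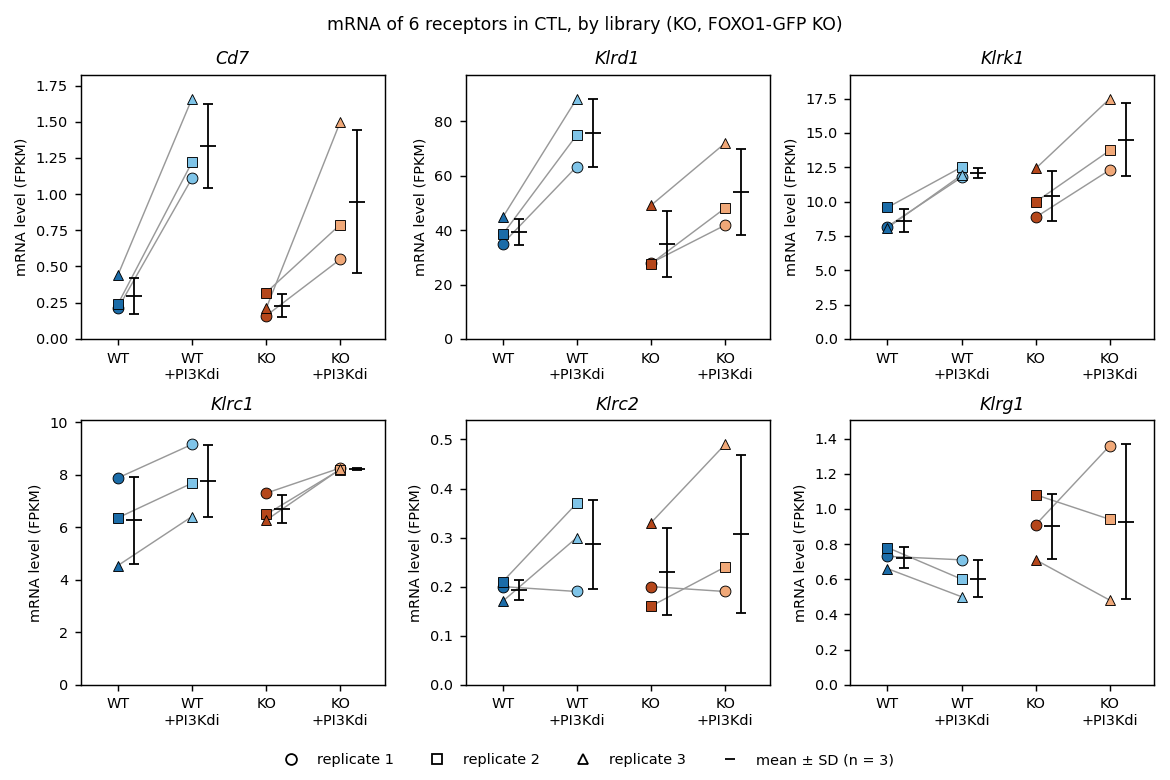
Levels of the 6 mRNA in FPKM (vertical axes, from 0, 1 panel a gene) in each library of the 4 groups (horizontal axis), with marker shapes for replicate numbers, grey lines joining the libraries of a replicate number within a genotype, and bars for mean ± SD (n = 3). Cd7, Klrd1, Klrk1 and Klrc1 were higher with PI3Kdi on all 6 lines, while the lines of Klrc2 and Klrg1 ran both ways.

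To ask how these receptors responded to loss of p110δ activity, each genotype was compared with itself, with against without PI3Kdi. Cd7 mRNA was about 4 times higher with PI3Kdi in both genotypes. Klrd1 was higher by 1.92 times in WT and by 1.55 times in FOXO1-GFP KO, Klrk1 by 1.40 and 1.39 times, and Klrc1 by 1.24 and 1.23 times (ratios of group means). Klrc2 and Klrg1 did not move one way in all pairs. Replicate numbers in the labels paired libraries within a genotype (paired libraries deviated together), so ratios within pairs are given too. The SE in the next paragraphs are from a fit that leaves this pairing out.

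Cd7 was at 0.21, 0.24 and 0.44 FPKM in the WT libraries and at 1.11, 1.22 and 1.66 FPKM in those given PI3Kdi. Among FOXO1-GFP KO libraries it was at 0.16, 0.32 and 0.21 FPKM, and with PI3Kdi at 0.55, 0.79 and 1.5 FPKM. Each library with PI3Kdi lay above each one without it in both genotypes, and the library of FOXO1-GFP KO+PI3Kdi replicate 3 stood above the other 2 of its group. Mean Cd7 was 0.297 ± 0.125 FPKM (SD, n = 3) in WT and 1.33 ± 0.291 FPKM in WT+PI3Kdi, which gave a log2 fold change of 1.88 ± 0.34 (SE) on the log2(FPKM + 0.1) scale, which understates changes of low mRNA. The FOXO1-GFP KO means were 0.230 ± 0.0819 without and 0.947 ± 0.494 FPKM with PI3Kdi, for a log2 fold change of 1.59 ± 0.34. Within pairs Cd7 was 5.29, 5.08 and 3.77 times higher in WT and 3.44, 2.47 and 7.14 times higher in FOXO1-GFP KO. The highest of these ratios set 30 reads against 3, and its exact 95% interval for counting error alone was 2.22 to 36.6. In FOXO1-GFP KO this interval was 1.14 to 13.9 for replicate 1 (19 reads against 4). For replicate 2 (19 reads against 12) it was 1.14 to 5.58. The WT intervals were 2.1 to 15.8, 2.43 to 11 and 1.93 to 7.73. With a pseudocount of 1 FPKM in place of 0.1 FPKM, the log2 fold changes of Cd7 were 0.84 in WT and 0.63 in FOXO1-GFP KO.

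Klrd1, the CD94 chain that NKG2A and NKG2C need to reach the cell surface, was at 35.04, 38.45 and 44.68 FPKM in WT and at 63.41, 75.02 and 88.40 FPKM in WT+PI3Kdi. The groups did not overlap. In FOXO1-GFP KO it was at 27.94, 27.64 and 49.10 FPKM, and with PI3Kdi at 41.83, 48.11 and 72.00 FPKM. Here replicate 3 was the highest library of both groups, and its value without PI3Kdi exceeded the values of the other 2 replicates with PI3Kdi, so the groups overlapped although each pair moved up. The log2 fold change of Klrd1 was 0.93 ± 0.25 (SE) for WT and 0.64 ± 0.25 for FOXO1-GFP KO. Within pairs Klrd1 was 1.81, 1.95 and 1.98 times higher in WT, and 1.5, 1.74 and 1.47 times higher in FOXO1-GFP KO.

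Klrc1, which encodes the inhibitory partner NKG2A, was at 7.88, 6.36 and 4.54 FPKM in WT and at 9.16, 7.68 and 6.41 FPKM in WT+PI3Kdi. These groups overlapped, because the WT libraries differed among themselves by more than the change within a pair. In FOXO1-GFP KO Klrc1 was at 7.30, 6.49 and 6.27 FPKM, and with PI3Kdi at 8.26, 8.20 and 8.22 FPKM, with no overlap. The log2 fold changes were 0.32 ± 0.19 (SE) in WT and 0.30 ± 0.19 in FOXO1-GFP KO, and pair ratios ran from 1.16 to 1.41 and from 1.13 to 1.31. Klrc2, which encodes the activating partner NKG2C, was at 0.20, 0.21 and 0.17 FPKM in WT and 0.19, 0.37 and 0.30 FPKM in WT+PI3Kdi. It was at 0.20, 0.16 and 0.33 FPKM in FOXO1-GFP KO, and at 0.19, 0.24 and 0.49 FPKM with PI3Kdi. In both genotypes replicates 2 and 3 were higher with PI3Kdi and replicate 1 was not, and the log2 fold changes were 0.37 ± 0.29 and 0.26 ± 0.29 (SE). The mRNA of the inhibitory chain was the more abundant, with Klrc1 at 16.8 to 48.2 times the FPKM of Klrc2 in the 12 libraries. This ratio depends on the length used, which for Klrc2 was 5812 exon bases against 2811 in its longest coding transcript. For Klrc1 both lengths are 1984 bases. Per kilobase of the longest coding transcript, mean Klrc2 would be at 0.526 FPKM and mean Klrc1 at 7.23, in the same order.

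Since CD94 is shared by both chains, the balance of Klrd1 and Klrc1 was computed within each library, where scaling between libraries cancels. The ratio of Klrd1 to Klrc1 FPKM was 6.78 ± 2.77 (SD, n = 3) in WT and 10.2 ± 3.45 in WT+PI3Kdi, and 5.31 ± 2.20 and 6.56 ± 1.94 in FOXO1-GFP KO without and with PI3Kdi. It was higher with PI3Kdi in all 6 pairs, and in both genotypes the larger of the group SDs exceeded the difference between group means. In WT the library with the most Klrd1 had the least Klrc1, and the ratio there ran from 4.45 to 9.84 without PI3Kdi.

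Klrk1, which encodes NKG2D, was at 8.18, 9.57 and 8.09 FPKM in WT and at 11.77, 12.51 and 11.93 FPKM in WT+PI3Kdi, with no overlap. In FOXO1-GFP KO it was at 8.86, 9.98 and 12.41 FPKM, and at 12.31, 13.73 and 17.50 FPKM with PI3Kdi. These groups overlapped by 1 library, FOXO1-GFP KO replicate 3. The log2 fold change of Klrk1 was 0.49 ± 0.15 (SE) for WT and 0.47 ± 0.15 for FOXO1-GFP KO. Pair ratios were the most even of the 6 genes in FOXO1-GFP KO, from 1.38 to 1.41, and in WT ran from 1.31 to 1.47.

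Klrg1, the cadherin receptor, was at 0.73, 0.78 and 0.66 FPKM in WT and at 0.71, 0.60 and 0.50 FPKM in WT+PI3Kdi, lower in all 3 pairs. In FOXO1-GFP KO it was at 0.91, 1.08 and 0.71 FPKM, and at 1.36, 0.94 and 0.48 FPKM with PI3Kdi, higher in 1 pair and lower in 2. The log2 fold changes of -0.24 ± 0.29 and -0.04 ± 0.29 (SE) were smaller than these errors. In the fit with the replicate block described next, the SE was 0.17, smaller than the WT change and larger than the FOXO1-GFP KO change.

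Members were also counted by the same rule as all genes. A call needed a fold change over 1.5 and an adjusted p under 0.05 (Benjamini-Hochberg, over the 13283 genes) in a limma fit of the 4 group means. Without the replicate block, 0 of the 6 were called in WT, where 0.0979% of all genes were, and 0 of 6 in FOXO1-GFP KO, where 0.0452% were. With the replicate number as a block within genotype, Cd7 and Klrd1 were called higher with PI3Kdi in both genotypes, against 1.53% of all genes called higher in WT and 1.82% in FOXO1-GFP KO. With the block, the SE of the PI3Kdi changes in each genotype was 0.21 for Cd7, 0.10 for Klrd1 and 0.07 for Klrk1. It was 0.08 for Klrc1, 0.16 for Klrc2 and 0.17 for Klrg1. Of the 6, 3 did not overlap between groups in WT (Cd7, Klrd1 and Klrk1) and 2 in FOXO1-GFP KO (Cd7 and Klrc1), all higher, beside 4.43% and 5.28% of all genes. Cd7, Klrd1, Klrk1 and Klrc1 were higher in all 3 pairs of each genotype, as were 16.7% of all genes in WT and 23.1% in FOXO1-GFP KO. The median log2 fold change of the 6 was 0.43 for WT and 0.39 for FOXO1-GFP KO, beside -0.04 and -0.02 over all genes. Nothing is read from these counts, or from the fits leaving out single libraries that follow, since the genes were chosen with these contrasts known. Leaving out single libraries under the block kept the Cd7 call in 12 of 12 fits in both genotypes. The Klrd1 call was kept in 12 of 12 fits in WT and in 11 of 12 in FOXO1-GFP KO, where without FOXO1-GFP KO replicate 2 the log2 fold change of 0.55 lay under the fold threshold.

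**Figure D2:**
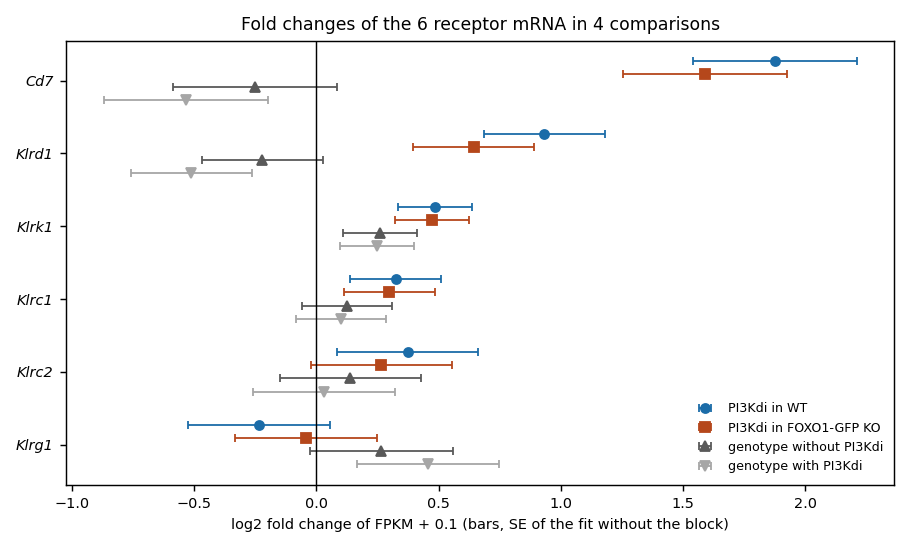
Log2 fold changes of the 6 mRNA (horizontal axis, on the log2(FPKM + 0.1) scale, bars are the SE of the fit without the block) under PI3Kdi in each genotype, and between genotypes (FOXO1-GFP KO over WT) without and with PI3Kdi. The PI3Kdi values of Cd7, at 1.88 and 1.59, are the farthest from 0, while all genotype values lie between -0.53 and 0.46.

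The second question was whether the receptors differed between FOXO1-GFP KO and WT CTL. Without PI3Kdi, mean Cd7 was 0.230 FPKM in FOXO1-GFP KO and 0.297 FPKM in WT, and the libraries of the groups overlapped for each of the 6 genes (10.3% of all genes did not overlap). The log2 fold changes (FOXO1-GFP KO over WT) were -0.25 ± 0.34 (SE) for Cd7, -0.22 ± 0.25 for Klrd1, 0.26 ± 0.15 for Klrk1, 0.13 ± 0.19 for Klrc1, 0.14 ± 0.29 for Klrc2 and 0.27 ± 0.29 for Klrg1. None of the 6 was called with or without the block, beside 0.331% of all genes without it and 0.233% with it. With PI3Kdi in both groups, mean Klrd1 was 54.0 ± 15.9 FPKM in FOXO1-GFP KO and 75.6 ± 12.5 FPKM in WT (SD, n = 3), a log2 fold change of -0.51 ± 0.25 (SE). Mean Cd7 was 0.947 and 1.33 FPKM, a log2 fold change of -0.53 ± 0.34. For both genes replicate 3 of FOXO1-GFP KO+PI3Kdi lay within the range of WT+PI3Kdi and the other 2 replicates lay below it. Klrk1 (0.25 ± 0.15), Klrc1 (0.10 ± 0.19), Klrc2 (0.03 ± 0.29) and Klrg1 (0.46 ± 0.29) had positive log2 fold changes with PI3Kdi. The groups overlapped for all 6 genes, while 14.8% of all genes did not overlap. Again 0 of 6 were called with or without the block, beside 1.45% and 1.18% of all genes.

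Klrd1 and Klrk1, neighbours on chromosome 6, had log2 fold changes of opposite sign between genotypes. Within each library, Klrd1 was at 4.61 ± 0.80 times the FPKM of Klrk1 in WT and 3.29 ± 0.61 times in FOXO1-GFP KO (SD, n = 3). With PI3Kdi these ratios were 6.27 ± 1.04 and 3.67 ± 0.39. The ratio ran from 4.02 to 5.52 in WT and from 2.77 to 3.96 in FOXO1-GFP KO, and from 5.39 to 7.41 and from 3.40 to 4.11 with PI3Kdi, so that in both treatments the genotypes did not overlap. The ratio was looked at after the values of both genes were known and was given no test.

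The third question was whether the genotypes differed in their response to PI3Kdi. The PI3Kdi log2 fold change in FOXO1-GFP KO minus that in WT was -0.28 ± 0.48 (SE) for Cd7 and -0.29 ± 0.35 for Klrd1. It was -0.01 ± 0.21 for Klrk1, -0.03 ± 0.26 for Klrc1, -0.11 ± 0.41 for Klrc2 and 0.19 ± 0.41 for Klrg1. With the replicate block the SE was 0.29 for Cd7, 0.14 for Klrd1, 0.09 for Klrk1, 0.12 for Klrc1, 0.23 for Klrc2 and 0.24 for Klrg1. The difference for Klrd1 was smaller than its SE without the block and larger than its SE with it, and the other 5 were smaller than both. This does not show that the responses were alike. In this contrast 0 of 6 members were called, and of all genes 0% were called without the block (limma, 200 at an unadjusted p under 0.05) and 0.0226% with it.

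The members were set beside their neighbours in the NK gene complex. Within 500 kb of the span from Klrd1 to Klrc2, 11 genes were in the table, these 4 and 7 others. Klrd1 had a higher log2 fold change with PI3Kdi in WT than each of the 7. In FOXO1-GFP KO, Klra5 was above it at 0.71. Klra5, which encodes a lectin of the Ly49 family, was at 1.22, 1.45 and 1.54 FPKM in WT and 1.80, 2.16 and 2.88 FPKM in WT+PI3Kdi. It was at 0.92, 1.38 and 1.33 FPKM in FOXO1-GFP KO, and at 1.54, 1.70 and 3.08 FPKM with PI3Kdi. The groups did not overlap in either genotype. It was called with the replicate block at log2 fold changes of 0.64 (limma adjusted p = 0.0246) in WT and 0.71 (adjusted p = 0.0156) in FOXO1-GFP KO, and not called without it (adjusted p = 0.858 and 0.841). Under the block its WT call was lost without any 1 of the 6 WT libraries, at log2 fold changes down to 0.52. The FOXO1-GFP KO call was lost without FOXO1-GFP KO replicate 1 or 3 or FOXO1-GFP KO+PI3Kdi replicate 3, at values down to 0.47. Klre1, the lectin gene next to Klrd1, was between 0.23 and 0.85 FPKM and was not called in any comparison. Its log2 fold changes with PI3Kdi were 0.17 ± 0.24 (SE) in WT and 0.44 ± 0.24 in FOXO1-GFP KO. The remaining 5 neighbours (Clec2d, 2310001H17Rik, Cd69, Clec12a and Gabarapl1) were not called.

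**Figure D3:**
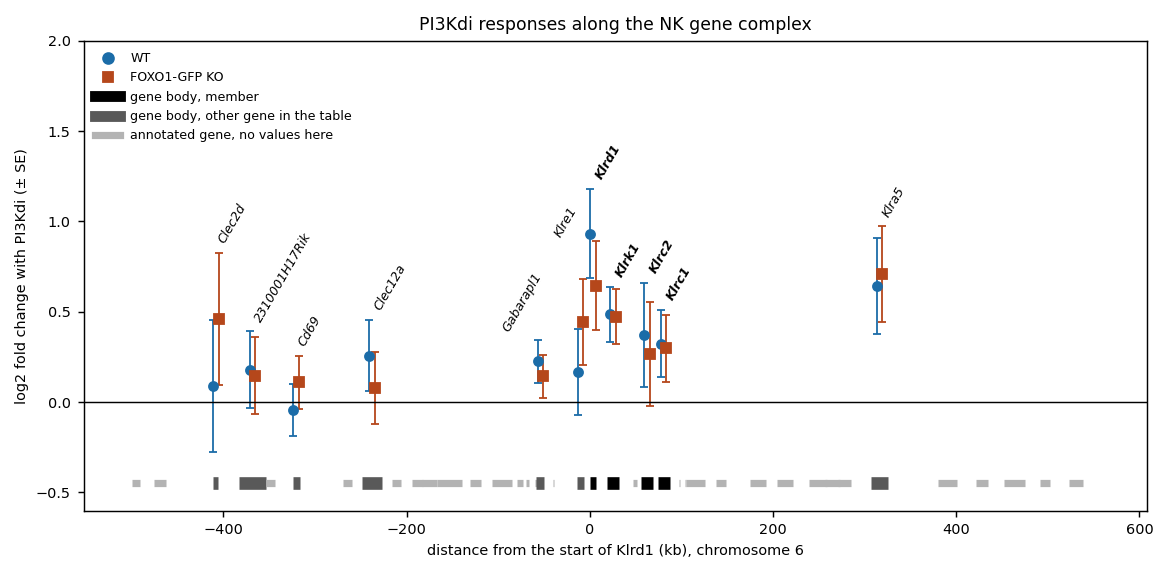
Log2 fold change with PI3Kdi (vertical axis, on the log2(FPKM + 0.1) scale, ± SE of the fit without the block) in WT (circles) and FOXO1-GFP KO (squares) for the genes of the table within 500 kb of the span from Klrd1 to Klrc2, by distance from the start of Klrd1 in kb (horizontal axis), with annotated gene bodies as bars at the bottom. Klrd1, at 0.93 and 0.64, stands above Klrk1, Klrc2 and Klrc1 beside it, and Klra5, at 0.64 and 0.71, lies about 300 kb away.

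Related genes were taken from lists of adaptors, ligands, signalling molecules, other receptors and regulators. The neighbours above were added by position, whether or not they work with the receptors. These lists were chosen with earlier results of these data known, so counts of calls in them are a description. Of 97 listed, 63 were in the table, the 7 neighbours included. Without the block 0 of these 63 were called with PI3Kdi in either genotype (7 in each had an unadjusted p under 0.05 in limma). With the block 2 were called higher and 3 lower in WT, and 4 higher and 1 lower in FOXO1-GFP KO. The background with the block was 1.53% higher and 1.05% lower of all genes in WT, and 1.82% and 0.964% in FOXO1-GFP KO. The median log2 fold change of the 63 was 0.08 for WT and 0.07 for FOXO1-GFP KO.

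Among adaptors, Hcst, which encodes the NKG2D adaptor DAP10, was abundant. It was at 32.96, 41.68 and 54.35 FPKM in WT and 34.91, 46.73 and 62.38 FPKM in WT+PI3Kdi, and at 41.89, 39.83 and 55.45 and 56.03, 54.23 and 72.67 FPKM in FOXO1-GFP KO without and with PI3Kdi. Klrk1 was thus at 0.149 to 0.337 times the FPKM of Hcst in the 12 libraries. This ratio too depends on the length used, 7183 exon bases for Klrk1 against 3197 in its longest coding transcript. Tyrobp, which encodes DAP12, the adaptor of CD94/NKG2C, was between 0.60 and 2.25 FPKM, and Fcer1g, which encodes the Fc receptor gamma chain, between 17.7 and 41.2 FPKM. None of the 3 adaptors was called in any comparison, and Hcst had log2 fold changes with PI3Kdi of 0.15 ± 0.23 (SE) in WT and 0.42 ± 0.23 in FOXO1-GFP KO.

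Of the ligands, H2-T23, which encodes Qa-1, was expressed by the CTL themselves at means of 85.5 ± 11.5 FPKM in WT and 91.3 ± 18.9 in WT+PI3Kdi, and 88.9 ± 17.7 and 119 ± 20.9 in FOXO1-GFP KO without and with PI3Kdi (SD, n = 3). Its log2 fold changes with PI3Kdi were 0.08 ± 0.19 (SE) and 0.42 ± 0.19, and it was not called. The 3 other genes listed beside it, H2-D1, H2-K1 and B2m, encode MHC class I chains other than Qa-1 itself and were not called either. Of 9 genes for NKG2D ligands only Ulbp1 was in the table, between 18.1 and 41.6 FPKM. Of 3 cadherins that bind KLRG1 only Cdh1, E-cadherin, was there, between 5.44 and 8.28 FPKM. Neither was called, and neither of the 2 genes listed for CD7 ligands, Sectm1a and Sectm1b, was in the table.

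Of 15 signalling molecules 1 was called in any comparison. Lcp2, which encodes the adaptor SLP-76, had a log2 fold change of -0.64 between the genotypes with PI3Kdi, lower in FOXO1-GFP KO, called with the block (limma adjusted p = 0.0435) and not called without it (adjusted p = 0.0974). With the block and 1 library left out it was called in 2 of 12 fits, those without WT replicate 1 or FOXO1-GFP KO+PI3Kdi replicate 1.

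Of 12 other NK lectin receptors in the table, Klra5 was called with PI3Kdi, as above, and Klrb1f between genotypes. Klrb1f encodes a lectin of the NKR-P1 family. With PI3Kdi it was at 2.39, 1.52 and 2.18 FPKM in WT and 0.69, 0.80 and 0.67 FPKM in FOXO1-GFP KO. Its log2 fold change was -1.36 ± 0.23 (SE), with a limma adjusted p of 0.0129 (0.00929 with the block). Without PI3Kdi it was at 2.24, 1.17 and 1.81 FPKM in WT and at 0.75, 0.90 and 0.81 FPKM in FOXO1-GFP KO. The difference there, -0.96 ± 0.23, was not called (adjusted p = 0.138), although these groups did not overlap either. Without the block the call with PI3Kdi was lost when replicate 1 or 3 of WT+PI3Kdi or of FOXO1-GFP KO+PI3Kdi was left out, at log2 fold changes of -1.23 to -1.33. With the block it was kept in 12 of 12 fits without 1 library.

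Of 10 other NK-type receptors of T cells, Tigit, which encodes an inhibitory receptor for nectin-family ligands, was lower in FOXO1-GFP KO with PI3Kdi. It was at 30.28, 28.86 and 33.68 FPKM in WT+PI3Kdi and at 17.69, 20.48 and 13.01 FPKM in FOXO1-GFP KO+PI3Kdi, for a change of -0.88 ± 0.15 on the log2 scale (SE; limma adjusted p = 0.0131, 0.0345 with the block). Without the block the call was lost without WT+PI3Kdi replicate 3, at a log2 fold change of -0.81. With the block it was kept in 7 of 12 fits and lost without replicate 1 of either FOXO1-GFP KO group, replicate 2 of either WT group or WT+PI3Kdi replicate 3. Klrb1f and Tigit were the 2 of 63 called in this comparison without the block, both lower, beside 1.02% of all genes called lower. Cd160, which encodes a receptor for HVEM, was higher with PI3Kdi in FOXO1-GFP KO with the block (0.77, limma adjusted p = 0.00137) but not without it (adjusted p = 0.707). Its WT log2 fold change of 0.46 did not pass the fold threshold. Itgae, the CD103 integrin chain, was called higher with PI3Kdi in FOXO1-GFP KO with the block only (0.71, limma adjusted p = 0.0414) and in 5 of 12 such fits without 1 library, being lost without WT replicate 1 or any 1 of the 6 FOXO1-GFP KO libraries. Its level was low, at 0.11, 0.38 and 0.31 FPKM in FOXO1-GFP KO and 0.26, 0.70 and 0.53 FPKM with PI3Kdi, with 11 reads in the lowest of these libraries.

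Of 15 transcriptional regulators, 5 were called with PI3Kdi in either genotype, all with the block only. In WT 1 was higher and 3 lower, beside 1.53% and 1.05% of all genes. In FOXO1-GFP KO 1 was higher and 1 lower, beside 1.82% and 0.964%. Nothing is read from these counts, since the list was chosen with earlier results of these data known. Zfp683, which encodes HOBIT, was at 9.60, 10.62 and 8.13 FPKM in WT and at 5.68, 4.06 and 2.25 FPKM in WT+PI3Kdi. The FOXO1-GFP KO libraries were at 6.25, 14.19 and 6.82 FPKM, and at 3.42, 7.19 and 3.89 FPKM with PI3Kdi. It was thus lower in all 6 pairs, by log2 fold changes of -1.31 in WT (limma adjusted p = 0.00143 with the block, 0.408 without) and -0.87 in FOXO1-GFP KO (0.0155 with, 0.924 without). The latter call was lost without FOXO1-GFP KO replicate 2 or FOXO1-GFP KO+PI3Kdi replicate 2 or 3. In WT, Prdm1, which encodes BLIMP1, was lower (-0.61, adjusted p = 0.0227 with the block, called in 7 of 12 fits without 1 library, and lost without any WT or WT+PI3Kdi library but WT replicate 3). Tox was also lower there (-0.78, adjusted p = 0.00812 with the block), but at 0.03 to 0.17 FPKM in the WT libraries, with 4 reads in the lowest, and the call was lost without replicate 3 of either WT group. Bach2, which encodes a repressor of effector genes, was higher with PI3Kdi in WT (0.71, limma adjusted p = 0.00553 with the block), a call lost without WT replicate 3. Id3, an inhibitor of E proteins, was higher with PI3Kdi in FOXO1-GFP KO (0.77, limma adjusted p = 0.000704 with the block), and its WT log2 fold change of 0.52 did not pass the fold threshold. Between genotypes mean Id3 was lower in FOXO1-GFP KO, at 2.66 FPKM against 5.27 in WT, and at 4.56 against 7.52 FPKM with PI3Kdi. Neither difference was called in the fit with or without the block. The T-box gene Eomes, at means of 84.6 and 93.0 FPKM in WT without and with PI3Kdi, was not called. Tbx21 and Runx3 were not called either.

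**Figure D4:**
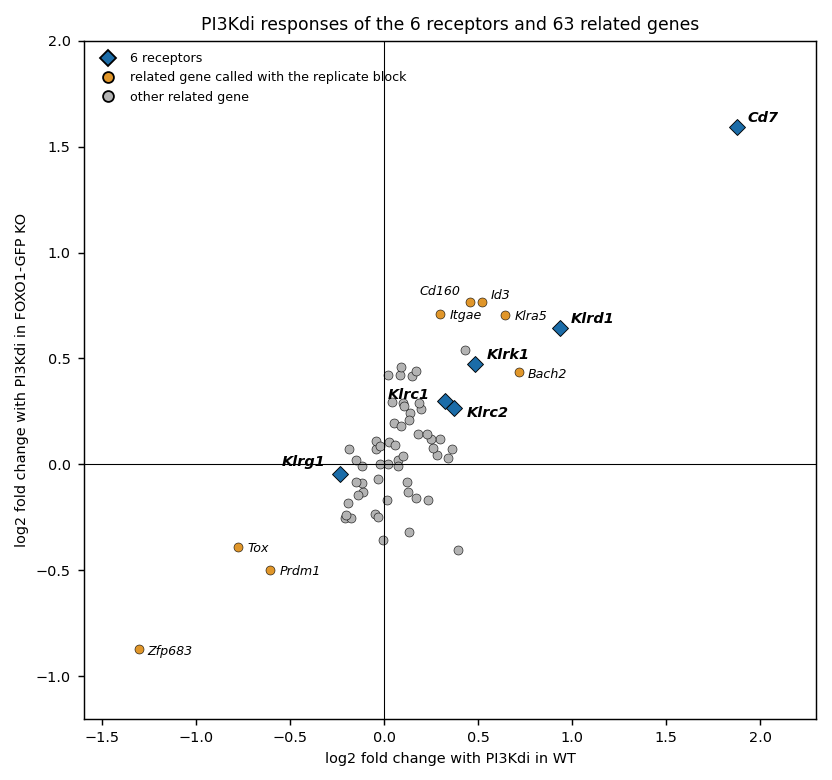
Log2 fold changes with PI3Kdi in WT (horizontal axis) and in FOXO1-GFP KO (vertical axis), on the log2(FPKM + 0.1) scale, for the 6 receptors (diamonds) and the 63 related genes (circles, filled orange where called with the replicate block in either genotype). Cd7 at 1.88 and 1.59 lies farthest to the upper right and Zfp683 at -1.31 and -0.87 farthest to the lower left.

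How alike the members were over the 12 libraries was described by Pearson's r of log2(FPKM + 0.1), with no test, since libraries share treatment, genotype and pairing. Cd7 and Klrd1 were the most alike pair (r = 0.88), followed by Klrk1 and Klrc2 (0.76). Klrg1 ran against Klrd1 (-0.72), and Klrc1 was hardly related to Klrd1 (0.17). Among genes whose mean was 1 FPKM or more, the 3 most like Klrd1 were Fam189b (r = 0.99), Tha1 (0.96) and Gm30054 (0.96). Those most like Cd7 were Hip1r (0.95), Rasgrp2 (0.94) and S1pr4 (0.94), and those most like Klrk1 were Gpr18 (0.93), Ncf1 (0.92) and Pink1 (0.92). For Klrc1 they were Fyb (0.84), Mapkapk2 (0.83) and Gm43495 (0.81), for Klrc2 Ciz1 (0.88), Wipi2 (0.87) and Mypopos (0.86), and for Klrg1 Nudt4 (0.95), Sms (0.92) and Elp2 (0.92). None of these 18 genes lies on chromosome 6. The share of all genes that lie there was not computed, so nothing is read from this. Fam189b, for example, was between 7.80 and 9.82 FPKM in WT and between 12.1 and 15.7 FPKM in WT+PI3Kdi, with replicate 3 the highest library in each of the 4 groups, as for Klrd1.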

How the data were processed

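The authors aligned 75-base paired reads from a stranded mRNA library kit (300 ng RNA) with STAR 2.7.1a to GRCm38.p6, counted reads per gene, filtered low genes and scaled libraries by TMM in edgeR. The deposited values are FPKM over summed exon length, to 2 decimals; counts were not used here, and 0 columns were left out. Reads were estimated from the recovered depth (97.5 to 99.5% of held-out low values were whole reads). The members and gene lists were chosen with earlier results of these data known. Genes named were the members, Foxo1, adaptors, H2-T23, listed genes called in any contrast, the 3 most alike genes per member, and neighbours called or next to a member; others are marker genes or list members named for their presence or lack of a call.

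The fit was limma 3.58.1 (R 4.3.3) on log2(FPKM + 0.1) of all 13283 genes, with 4 group means, empirical Bayes with a trend, and 5 contrasts. Whether a pair came from 1 mouse is not in the labels, and p-values measure the spread between libraries. Deviations of paired libraries correlated at 0.596 to 0.838 in WT and 0.594 to 0.780 in FOXO1-GFP KO, so a replicate block within genotype was fitted as well (consensus correlation 0.757). Libraries of the same number in the other genotype correlated from -0.409 (replicate 2) to 0.730 (replicate 3) without PI3Kdi. With PI3Kdi they correlated from -0.315 (replicate 2) to 0.508 (replicate 3). The block does not model this. Alternatives were other pseudocounts, a filter, median centring, only the groups compared, fixed pair terms and leaving out libraries. Voom on estimated reads, and leaving out libraries under the block, were chosen after seeing the data. Gene models were from GENCODE M21 (GRCm38).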

Additional observations from a re-analysis of the deposited data

Results flagged for a closer look

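Klrb1f was higher with PI3Kdi in 3 of 3 WT pairs (1.07, 1.30 and 1.20 times) and lower in 3 of 3 FOXO1-GFP KO pairs (0.92, 0.89 and 0.83 times). It was the only gene found when the 6 members and 63 related genes were searched for such opposite moves. The share of all genes with this pattern was not computed. The PI3Kdi response in FOXO1-GFP KO minus that in WT was -0.40 ± 0.33 (SE) on the log2 scale, and this difference was not called (limma adjusted p = 1 without and 0.356 with the replicate block). Groups of 3 were not examined for single outlying libraries.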

How the results depend on the processing

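The replicate block changed the calls with PI3Kdi. Nothing is read from the member counts given here, since the members were chosen with these contrasts known. In WT, 0 members and 0 related genes were called without it, 2 members and 5 related genes with the block within genotype, 2 and 3 with fixed pair terms, and 2 and 5 with voom and the block, chosen after seeing the data. In FOXO1-GFP KO these counts were 0 and 0, 2 and 5, 2 and 5, and 2 and 6. Voom without the block left the member counts at 0. Between genotypes with PI3Kdi, 2 related genes were called, and 1 with only the groups compared, Tigit being lost. Without PI3Kdi 0 were called, and 1 (Id3, lower in FOXO1-GFP KO) when genes under a mean of 1 FPKM were left out. Leaving out 1 library, with or without the block, gave 0 to 2 members in both genotypes, 0 to 5 related genes in WT, 0 to 6 in FOXO1-GFP KO (4 under the block without WT replicate 1 or without FOXO1-GFP KO+PI3Kdi replicate 1) and 0 to 3 between genotypes with PI3Kdi. In all of these fits 0 members were called between genotypes or for the difference of responses. A pseudocount of 1 FPKM lowered the log2 fold change of Cd7 to 0.84 in WT and 0.63 in FOXO1-GFP KO. Fixed pair terms cannot give contrasts between genotypes, and the fit of only the groups compared cannot give the difference of responses. At 3 to 30 reads for Cd7 and under 60 for Klrc2 and Klrg1, depth limits their values.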
